A study of Mus musculus with 8 samples.

Results

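The genes described here are the laminin chains, nidogens, perlecan and hemicentins of PDGFRA+ cells of the mouse heart. The 10 genes *Lama2*, *Lama4*, *Lamb1*, *Lamb2*, *Lamc1*, *Nid1*, *Nid2*, *Hspg2*, *Hmcn1* and *Hmcn2* were chosen by symbol, as basement membrane genes other than type IV collagen chains. All 10 were found among the 18957 genes listed, and all 10 were among the 13036 genes that passed the filter on low counts and were tested.

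Basement membranes are thin sheets of matrix beneath or around cells. Laminins are cross-shaped trimers of an alpha, a beta and a gamma chain that polymerise at the cell surface, where integrins and dystroglycan hold them. Nidogens and the heparan sulfate proteoglycan perlecan, the product of *Hspg2*, connect this polymer with the type IV collagen network, and hemicentins are very long immunoglobulin-domain proteins that join neighbouring tissues at their basement membranes. In the heart, a basement membrane surrounds each myocyte and each capillary, and fibroblasts are among the cells that secrete its components.

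RNA of 4 WT and 4 Pdgfra-Cre:LmnaF/F libraries was compared to ask how deletion of *Lmna*, the gene for lamins A and C of the nuclear lamina, affects gene expression in cardiac fibroblasts. The mice were 3 to 4 weeks old and of the C57BL/6 (mixed) strain. The mutant mice carried *Lmna* alleles with floxed exon 2 and a Pdgfra-Cre BAC transgene, and the WT were littermates with wild-type alleles alone. Live ventricular cells that were positive for PDGFRA and negative for blood lineage markers were sorted by flow cytometry. Because no library came from mice with Pdgfra-Cre alone, effects of the transgene and of *Lmna* deletion cannot be told apart, and this Cre was also active in part of the cardiac myocytes. Neither the labels nor the methods state that each library came from a separate mouse, so p-values measure the spread between these libraries. In RNA of sorted bulk cells, fewer cells of a type and less RNA per cell cannot be told apart.

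Total counts lay between 2080555 in WT replicate 2 and 12502949 in Pdgfra-Cre:LmnaF/F replicate 4. Levels are given as CPM, the counts scaled by library size with TMM factors. *Lmna* stood at 331, 274, 483 and 374 CPM in WT replicates 1 to 4 and at 126, 97.4, 130 and 90.4 CPM in the mutant replicates, which is -1.72 as a log2 fold change (SE 0.22, edgeR adjusted p = 0.00492). The counts are per gene, so reads from the floxed exon were not separated. The 9 mesenchymal markers summed to between 64840 and 84120 CPM in WT and between 70894 and 80094 CPM in the mutant libraries, and *Pdgfra* did not differ by the test (log2 fold change 0.30, edgeR adjusted p = 0.666). The 8 cardiac myocyte markers summed to between 707 and 1034 CPM in WT, and to 300, 881, 847 and 5593 CPM in the mutant replicates 1 to 4. The 8 endothelial markers summed to between 562 and 784 CPM in WT and between 447 and 577 CPM in the mutant libraries. *Tek* was the largest part of this sum in each library. The 7 mural markers summed to between 236 and 406 CPM in WT and between 207 and 395 CPM in the mutant libraries. The ranges were 264 to 349 and 326 to 416 CPM for 6 Schwann cell markers, 50.8 to 235 and 64.4 to 460 CPM for 8 leukocyte markers, 11.0 to 45.8 and 6.67 to 15.7 CPM for 6 epicardial markers, and 31.6 to 365 and 16.8 to 666 CPM for 5 erythroid markers. No marker was at 0 in every library, and among the markers tested the mesenchymal *Thy1* alone passed the edgeR test, being lower in the mutant libraries. DESeq2 called the endothelial marker *Tek* as well, at 473 and 313 CPM (adjusted p = 0.0285). All mutant libraries lay below all WT libraries for *Tek* and for *Cdh5*, at 47.8 and 21.3 CPM, which held for 3.97% of tested genes. Both were chosen after their values were seen. The groups overlapped for every other endothelial marker, with log2 fold changes from -0.56 for *Pecam1* to 0.27 for *Cldn5*. The part of other cell types in the results below was not tested.

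One library bears on most of the basement membrane genes. WT replicate 3 had the lowest level of its group for 7 of the 10 genes, with a median log2 difference of -0.84 from the other WT libraries, and it had the highest for none. The 10 genes together took 2.70%, 2.81%, 1.52% and 2.63% of all counts in WT replicates 1 to 4, and 2.10%, 1.89%, 1.97% and 2.01% in the mutant replicates. Thus WT replicate 3 lay below all 4 mutant libraries and the other WT libraries lay above them. The laminins made up most of these counts, with 0.814% in WT replicate 3, between 1.42% and 1.55% in the other WT libraries and between 1.19% and 1.37% in the mutant libraries.

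**Figure D1:**
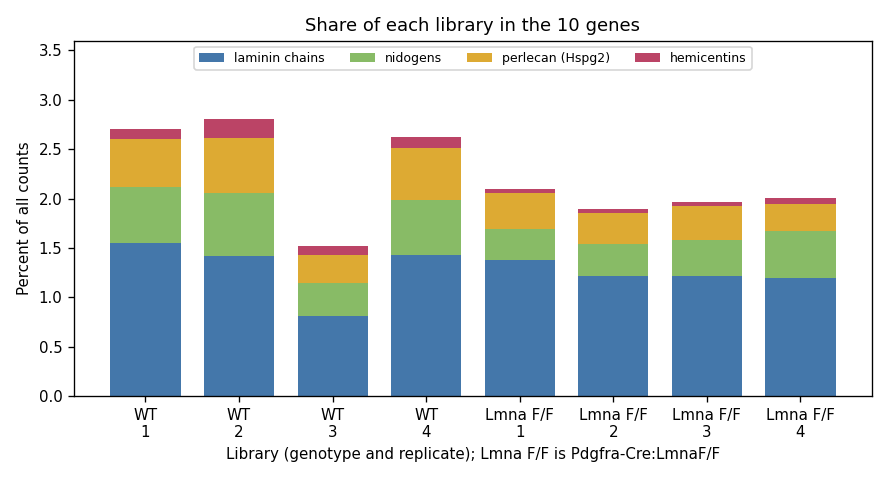
Share of all counts of each library (y axis, percent) held by the 10 genes, drawn as stacked bars by family for the 4 WT and 4 Pdgfra-Cre:LmnaF/F libraries (x axis). The bar of WT replicate 3, at 1.52%, is the shortest, and the mutant bars lie between 1.89% and 2.10%.

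*Hmcn2*, which encodes hemicentin 2, was the 1 gene of the 10 that passed the test, and it was 3.67-fold lower in the Pdgfra-Cre:LmnaF/F cells. Its paralog *Hmcn1* had a positive fold change that did not pass the test. The stretch of 250 bases ahead of the RefSeq start of each hemicentin gene is shown because the pair stood at opposite ends of the fold changes. The *Hmcn2* stretch lies at chr2:31314082-31314331 on the plus strand and the *Hmcn1* stretch at chr1:150993436-150993685 on the minus strand (GRCm38.p6), both written 5′ to 3′ along the gene. Capitals mark matches to the AP-1 motif TGANTCA, the GC box GGGCGG and the CCAAT box CCAAT on either strand.
Hmcn2: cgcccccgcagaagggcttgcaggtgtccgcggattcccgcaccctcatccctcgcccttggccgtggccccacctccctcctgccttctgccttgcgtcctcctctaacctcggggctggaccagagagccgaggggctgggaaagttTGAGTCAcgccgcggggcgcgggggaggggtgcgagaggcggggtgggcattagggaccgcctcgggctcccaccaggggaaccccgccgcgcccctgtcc
Hmcn1: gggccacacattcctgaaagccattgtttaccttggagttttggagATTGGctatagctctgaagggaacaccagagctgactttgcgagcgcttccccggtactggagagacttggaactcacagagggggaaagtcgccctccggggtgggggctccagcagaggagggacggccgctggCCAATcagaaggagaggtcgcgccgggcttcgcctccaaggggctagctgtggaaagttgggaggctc
The *Hmcn2* stretch held 72.4% G and C and 1 AP-1 match, at positions -101 to -95 from the start, a motif found in 6.75% of the 32841 windows of the same length in the promoter table. The *Hmcn1* stretch held 60.0% G and C and 2 CCAAT matches, at -204 to -200 and -68 to -64, and CCAAT was found in 33.9% of all windows. The median G and C content of all windows was 52.4%. These matches describe the letters of the windows and are not measured binding.

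*Hmcn2* was measured at 857, 1935, 905 and 1087 CPM in WT replicates 1 to 4 and at 312, 266, 226 and 497 CPM in the Pdgfra-Cre:LmnaF/F replicates. Every mutant library lay below every WT library, WT replicate 2 stood high in its group and mutant replicate 4 stood nearest to the WT. The means were 1196 ± 502 CPM (SD, n = 4) in WT and 325 ± 120 CPM (SD, n = 4) in the mutant libraries. The log2 fold change of *Hmcn2* was -1.88 (SE 0.31, 95% interval -2.53 to -1.22, edgeR adjusted p = 0.0219), and its p was the 13th lowest of the 13036 tested. Between 1963 and 10501 counts per library stood behind these levels. *Hmcn2* passed the test under all 8 other settings that kept every library, among them DESeq2, limma-voom and another scaling, with log2 fold changes from -2.06 to -1.86. With 1 library left out at a time, it passed in 6 of 8 fits. The edgeR adjusted p of *Hmcn2* was 0.0658 without mutant replicate 2 and 0.0848 without mutant replicate 3, with log2 fold changes of -1.80 and -1.73. Without WT replicates 2 and 3 together, the shallowest libraries, its log2 fold change was -1.59 (edgeR adjusted p = 0.0917). Without mutant replicate 4, the library with the high cardiac myocyte sum, it was -2.16 (edgeR adjusted p = 0.00415).

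*Hmcn1*, the gene for hemicentin 1, was measured at 110.2, 58.4, 48.1 and 101 CPM in WT replicates 1 to 4 and at 116, 104, 169 and 94.2 CPM in the mutant replicates. The groups overlapped, since mutant replicate 4 lay below WT replicates 1 and 4. The means were 79.5 ± 30.8 CPM in WT and 121 ± 33.3 CPM in the mutant libraries (SD, n = 4 each), with a log2 fold change of 0.60 (SE 0.28, 95% interval -0.00 to 1.19, edgeR adjusted p = 0.421). It was the least counted of the 10 genes, with 116 counts in WT replicate 2.

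The ratio of the paralogs within each library, which needs no library scaling, was compared for the hemicentins as for 3 other within-family pairs. It rests on the same counts as the fold changes of *Hmcn1* and *Hmcn2* and is not separate support for them. The log2 ratio of *Hmcn1* to *Hmcn2*, each per kb of exon, was -3.36, -5.44, -4.63 and -3.82 in WT replicates 1 to 4 and -1.82, -1.75, -0.82 and -2.80 in the mutant replicates. All mutant ratios lay above all WT ratios. The means were -4.31 ± 0.92 and -1.80 ± 0.81 (SD, n = 4 each), a difference of 2.52 or 5.72-fold. The exact two-sided permutation test gave p = 0.0286, the smallest that 70 assignments allow, and p = 0.114 after adjustment over the 4 family ratios compared, so the difference did not pass the correction. A ratio that is alone at the smallest p cannot have an adjusted value below 0.114 in this design. *Hmcn2* thereby made up 91.1%, 97.8%, 96.1% and 93.4% of hemicentin level per kb in the WT libraries and 78.0%, 77.1%, 63.8% and 87.4% in the mutant libraries. *Hmcn2* was the larger share in each of the 8 libraries.

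**Figure D2:**
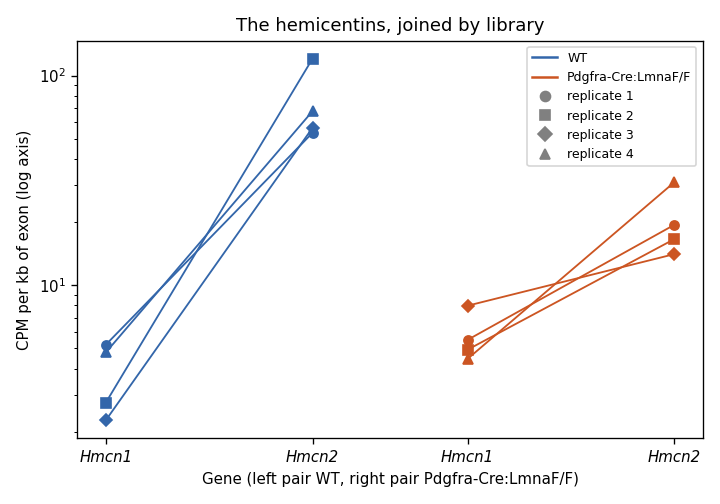
Levels of *Hmcn1* and *Hmcn2* (log y axis, CPM per kb of exon) in the 4 WT (left) and 4 Pdgfra-Cre:LmnaF/F libraries (right), with a line joining the points of 1 library. The *Hmcn2* points lie between 53.3 and 120.4 in WT and between 14.1 and 30.9 in the mutant libraries, the *Hmcn1* points overlap, and every line is flatter in the mutant libraries than in WT.

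The 5 laminin chains can form the trimers of muscle basement membranes and part of those of vessel walls. *Lama2* encodes the alpha chain of muscle laminin, whose loss causes a congenital muscular dystrophy. It was measured at 4395, 3376, 1771 and 3759 CPM in WT replicates 1 to 4 and at 2944, 3292, 3539 and 3804 CPM in the mutant replicates. The mutant libraries lay within the WT range, and WT replicate 3 was the lowest of all 8. The log2 fold change of *Lama2* was 0.03 (SE 0.26, 95% interval -0.52 to 0.58, edgeR adjusted p = 0.979), with means of 3325 ± 1118 and 3395 ± 366 CPM (SD, n = 4 each). Without WT replicate 3 the sign turned, to -0.18.

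*Lama4*, the alpha chain of vessel walls and of several mesenchymal tissues, was measured at 1706, 1637, 1209 and 1829 CPM in WT and at 1664, 1497, 1019 and 929 CPM in the mutant replicates. Mutant replicates 3 and 4 lay below all WT libraries and the other two did not. The log2 fold change was -0.32 (SE 0.24, 95% interval -0.82 to 0.18, edgeR adjusted p = 0.663). *Lama2* took 65.6%, 60.4%, 52.0% and 60.3% of the summed level of both alpha chains per kb in WT, and 56.7%, 61.9%, 71.9% and 75.2% in the mutant libraries. The log2 ratio of *Lama2* to *Lama4* differed by 0.45 between the groups, which overlapped (exact permutation p = 0.229).

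Of the beta chains, *Lamb1* is widely expressed and *Lamb2* is enriched at synapses, in the kidney filter and in vessels. *Lamb1* was measured at 3623, 3158, 1934 and 3262 CPM in WT and at 3205, 2852, 2759 and 2836 CPM in the mutant replicates, and again the mutant libraries lay within the WT range. Its log2 fold change was -0.04 (SE 0.22, 95% interval -0.52 to 0.44, edgeR adjusted p = 0.967). *Lamb2* was measured at 536, 821, 545 and 525 CPM in WT and at 475, 289, 416 and 559 CPM in the mutant replicates. WT replicate 2 stood apart at the top, and mutant replicate 4 was the 1 mutant library above WT libraries. The log2 fold change of *Lamb2* was -0.48 (SE 0.24, 95% interval -0.99 to 0.03, edgeR adjusted p = 0.454), and the ratio of *Lamb1* to *Lamb2* differed by 0.49 on the log2 scale (exact permutation p = 0.200).

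*Lamc1*, the gamma chain that most laminin trimers share, was measured at 5290, 5824, 2796 and 5278 CPM in WT and at 5125, 3879, 3913 and 4313 CPM in the mutant replicates. The 3 WT libraries other than replicate 3 lay above all mutant libraries. With all 8 libraries the log2 fold change was -0.16 (SE 0.24, 95% interval -0.68 to 0.37, edgeR adjusted p = 0.874), and without WT replicate 3 it was -0.35 (edgeR adjusted p = 0.548). Per kb of exon, the alpha chains summed to 0.486 to 0.642 of the *Lamc1* level in WT and to 0.513 to 0.694 in the mutant libraries. The beta chains summed to 0.644 to 0.842 of *Lamc1* in WT and to 0.648 to 0.733 in the mutant libraries. Both ratios were below 1 in all 8 libraries, and the ranges of the genotypes overlapped. Exon length here is the union of exons over all annotated transcripts of a gene. The ratios therefore do not settle which chain had more transcripts.

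The nidogens bind the gamma chain of laminin. *Nid1* was measured at 5520, 6474, 3161 and 5454 CPM in WT and at 2945, 2990, 3208 and 4682 CPM in the mutant replicates. Mutant replicates 1 to 3 lay close together, replicate 4 stood apart from them, and WT replicate 3 lay among the mutant values. The means were 5152 ± 1407 and 3456 ± 825 CPM (SD, n = 4 each), and the log2 fold change was -0.58 (SE 0.25, 95% interval -1.12 to -0.03, edgeR adjusted p = 0.391). Without WT replicate 3 the groups of *Nid1* did not overlap (log2 fold change -0.76, edgeR adjusted p = 0.198), and neither DESeq2 (adjusted p = 0.186) nor limma-voom (adjusted p = 0.0934) called it on all libraries.

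*Nid2*, which can take the place of *Nid1* in several basement membranes, was far lower, at 218, 196, 201 and 212 CPM in WT and 138, 190.2, 211 and 269.9 CPM in the mutant replicates. The WT libraries lay within a narrow band, and the mutant libraries fell on both sides of it. The log2 fold change was -0.03 (SE 0.21, 95% interval -0.48 to 0.42, edgeR adjusted p = 0.973). *Nid1* made up between 92.1% and 96.1% of nidogen level per kb in WT and between 91.9% and 94.1% in the mutant libraries, and the log2 ratio of *Nid1* to *Nid2* differed by -0.48 (exact permutation p = 0.114). Of the exon bases of *Nid2*, 8.45% overlap *Rtraf* on the opposite strand, and the strand setting of the counting is not given in the sources used here.

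*Hspg2* was measured at 4866, 5925, 2857 and 5369 CPM in WT and at 3542, 3016, 3342 and 2918 CPM in the mutant replicates. The mutant libraries were close to each other, and all of them lay below WT replicates 1, 2 and 4 and above WT replicate 3. The means were 4754 ± 1337 and 3204 ± 289 CPM (SD, n = 4 each), and the log2 fold change of *Hspg2* was -0.57 (SE 0.24, 95% interval -1.08 to -0.06, edgeR adjusted p = 0.364). Without WT replicate 3 it was -0.75 (edgeR adjusted p = 0.146), and it passed no other test on all libraries (DESeq2 adjusted p = 0.135, limma-voom adjusted p = 0.123).

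**Figure D3:**
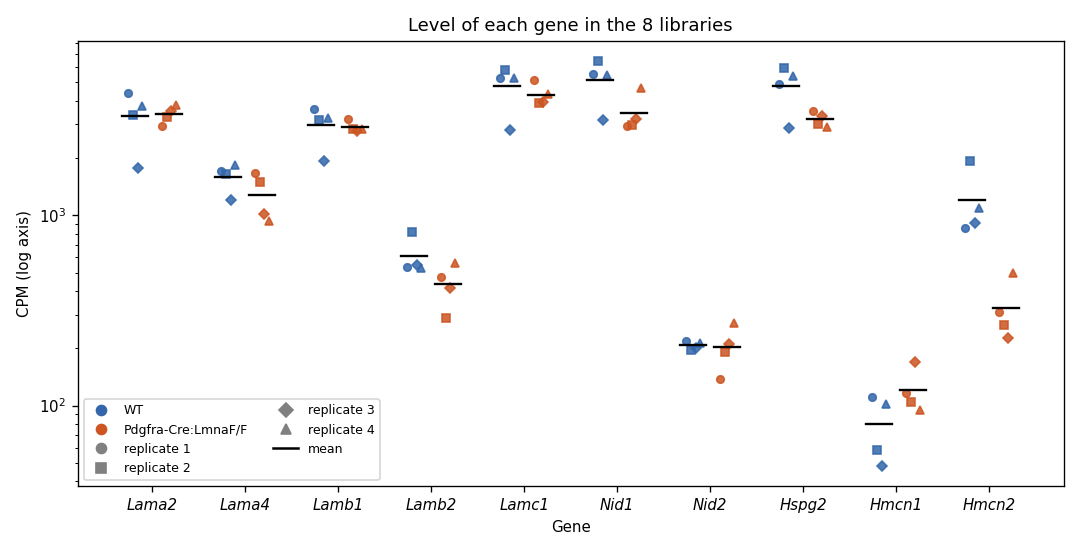
Level of each of the 10 genes in each library (log y axis, CPM), with points for the 4 WT and 4 Pdgfra-Cre:LmnaF/F libraries and a line at each group mean. *Hmcn2* is the 1 gene whose groups are apart, and WT replicate 3 is the lowest WT point for 7 of the 10 genes.

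Of the 10 genes, 1 passed the test at an adjusted p under 0.05, against 0.407% of all tested genes, and it was lower in the mutant libraries, against 0.238% of all tested genes called lower. The 10 genes had 2 positive and 8 negative log2 fold changes with a median of -0.24, and the median over all tested genes was 0.02. At an unadjusted p under 0.05, 3 of 10 passed (*Hmcn2*, *Hspg2* and *Nid1*), against 11.9% of all tested genes. DESeq2 and limma-voom each called 1 of the 10, *Hmcn2*, against 2.58% and 0.967% of all genes to which they gave an adjusted p. With edgeR, the same 1 of 10 was called without the filter on low counts, against 1.45% of all listed genes, and with 1 RUVr factor, against 0.637% of tested genes. For 1 of 10, *Hmcn2*, all mutant libraries lay below all WT libraries, which held for 3.97% of tested genes. Without WT replicate 3 this held for 4 genes (*Lamc1*, *Nid1*, *Hspg2* and *Hmcn2*), against 7.15% of tested genes in the same 7 libraries.

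**Figure D4:**
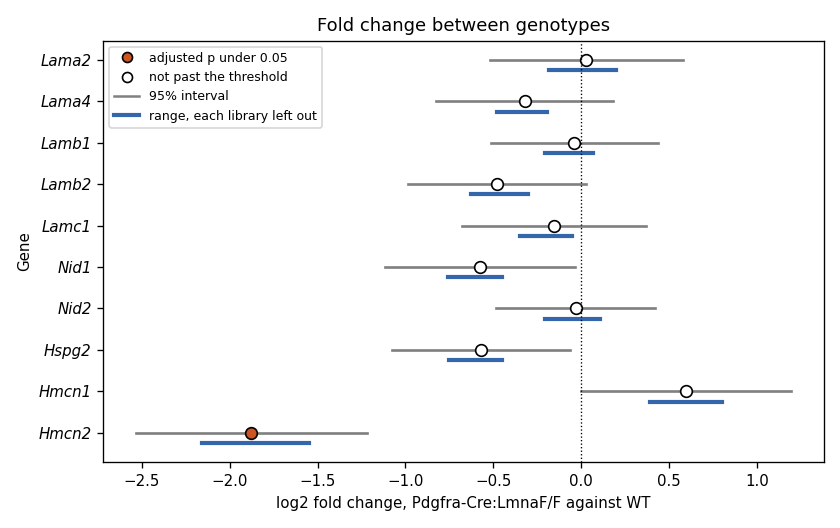
Log2 fold change of each of the 10 genes in Pdgfra-Cre:LmnaF/F against WT libraries (x axis), with 95% intervals as grey lines, the range over the fits that leave out 1 library as blue lines, and a filled point for the gene that passed the test. The interval of *Hmcn2*, from -2.53 to -1.22, lies far from 0, and those of *Lama2*, *Lamb1* and *Nid2* are centred close to 0.

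To compare genes, levels were divided by exon length, the union of exons over all annotated transcripts of a gene. Where this union is longer than the transcript expressed, the value per kb is too low, so the order is approximate. In WT, *Nid1* led with 742 ± 203 CPM per kb of exon (SD, n = 4), followed by *Lamc1* at 580 ± 164, *Hspg2* at 332 ± 93.4, *Lamb1* at 302 ± 74.0 and *Lama2* at 204 ± 68.4. *Lama4* at 132 ± 22.3, *Lamb2* at 99.8 ± 23.5, *Hmcn2* at 74.4 ± 31.2, *Nid2* at 39.99 ± 1.94 and *Hmcn1* at 3.75 ± 1.46 CPM per kb were lower. The ranges of neighbours in this order overlapped except between *Hmcn2* and *Nid2* and between *Nid2* and *Hmcn1*. Compared within each WT library, every gene stood above the next in all 4, except *Hspg2* over *Lamb1*, in 3. In the mutant libraries *Lamc1* (521 ± 70.1 CPM per kb) and *Nid1* (498 ± 119) led with overlapping ranges. There *Hmcn2*, at 20.2 ± 7.46 CPM per kb, ranked 9th in place of 8th, below *Nid2* at 39.1 ± 10.5. In mean CPM over all 8 libraries, before division by length, *Lamc1*, *Nid1*, *Hspg2* and *Lama2* exceeded 99.9% of the tested genes, *Hmcn2* 99.1% and *Hmcn1* 84.4%.

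On mm10, *Hmcn2* (ENSMUSG00000055632.18) spans chr2:31314415-31460738 on the plus strand with 16073 exon bases in the GENCODE M21 model, and *Hmcn1* (ENSMUSG00000066842.18) spans chr1:150562524-150993435 on the minus strand with 21191 exon bases. The printed *Hmcn2* stretch therefore ends upstream of the start of its GENCODE model. Of the other 8 genes, *Lama2*, *Lamb1*, *Lamb2*, *Nid1* and *Hspg2* had an entry in the promoter table, so that 7 of 10 were matched. The AP-1 motif was found in *Hmcn2* alone among these 7. GGGCGG was found in *Lamb1*, *Nid1* and *Hspg2*, with 5 matches in *Hspg2*, and in 32.7% of all windows. CCAAT was found in *Lamb1*, *Nid1* and *Hmcn1*. None of the 7 windows held TATAAA, which was found in 12.4% of all windows. None held the E-box CACGTG (6.02% of all windows) or the cyclic AMP response element TGACGTCA (1.55%).

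The tested genes whose pattern over the 8 libraries was most like that of *Hmcn2* were *Thy1*, *Islr* and *Adamtsl2*. Likeness was the mean absolute difference of log2 CPM, each gene centred on its own mean, and was 0.281, 0.283 and 0.300 for them against a median of 1.02 over all tested genes. Since the likeness includes the difference between genotypes, a lower mutant level of these genes was fixed by the choice and is given as a description. The log2 fold change was -2.18 for *Thy1*, a surface protein of fibroblasts (edgeR adjusted p = 0.00273), and -1.51 for *Islr*, the gene for meflin (edgeR adjusted p = 0.00994). For *Adamtsl2*, a microfibril-associated protein, it was -1.25 and did not pass the test (edgeR adjusted p = 0.160). Most like *Hmcn1* were *Rab33b*, *Mob1b* and *Naa50*, at 0.118, 0.123 and 0.141 against a median of 0.588.

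Other genes of the basement membrane and its receptors were taken from 5 lists, whose counts stand against 0.407% of all tested genes called with edgeR, 11.9% at an unadjusted p under 0.05, 2.58% called with DESeq2 and 0.967% with limma-voom. None of the 6 other laminin chains passed the edgeR test, with 1 at an unadjusted p under 0.05 (11.9% of all tested genes), 3 positive and 3 negative log2 fold changes and a median of -0.16. *Lamc3*, a gamma chain of few tissues, stood at -2.07 (SE 0.74, edgeR adjusted p = 0.274) at mean levels of 8.35 and 1.99 CPM, and DESeq2 called it (adjusted p = 0.0493). *Lamb3* at -0.51, a beta chain of epithelial laminin, did not pass (edgeR adjusted p = 0.855).

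Of the 6 type IV collagen chains, which form the second network of basement membranes, 2 passed and both were lower (0.238% of all tested genes), 4 had an unadjusted p under 0.05 (11.9% of all tested genes), and all 6 fold changes were negative, with a median of -0.72. *Col4a4* fell from 214 to 43.0 CPM (log2 fold change -2.31, SE 0.28, edgeR adjusted p = 0.00273) and *Col4a3* from 94.0 to 19.4 CPM (log2 fold change -2.28, SE 0.30, edgeR adjusted p = 0.00492). *Col4a5*, which assembles with both, was at 297 and 166 CPM (log2 fold change -0.84, SE 0.27, edgeR adjusted p = 0.206). These 2 calls were made under every setting run.

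Of 20 other basement membrane proteins, 0 passed the edgeR test, 9 had an unadjusted p under 0.05 (11.9% of all tested genes), and 3 fold changes were positive and 17 negative, with a median of -0.49. *Ntn4*, a netrin that binds laminin, stood at -1.06 on the log2 scale (SE 0.24, edgeR adjusted p = 0.0830), *Ecm1* at -1.25 (SE 0.33, edgeR adjusted p = 0.134), and *Pxdn*, the peroxidase that crosslinks type IV collagen, at -0.96 (SE 0.30, edgeR adjusted p = 0.208). DESeq2 called 4 of this list, *Ecm1*, *Ntn4*, *Pxdn* and *Sparc* (303 genes, or 2.58%, over the whole table), and limma-voom called 0.

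Laminin receptors and the dystrophin-glycoprotein complex were listed with 26 genes, of which 24 passed the filter. None passed the edgeR test, 2 had an unadjusted p under 0.05, a share below the 11.9% of all tested genes, and 13 fold changes were positive and 11 negative, with a median of 0.03. *Dag1*, which encodes dystroglycan, was at 397 ± 85.2 CPM in WT and 241 ± 37.9 CPM in the mutant libraries (log2 fold change -0.72, SE 0.21, edgeR adjusted p = 0.183). The syndecan *Sdc3* stood at -0.91 (SE 0.26, edgeR adjusted p = 0.166) and *Sgce* at -0.33 (edgeR adjusted p = 0.510). DESeq2 called *Dag1* and *Sdc3*, and limma-voom called 0. Of 17 enzymes that glycosylate dystroglycan for laminin binding, 0 passed with edgeR, DESeq2 or limma-voom, 2 had an unadjusted p under 0.05 with edgeR, a share close to the 11.9% of all tested genes, and 5 fold changes were positive and 12 negative, with a median of -0.18. *Pomk* at -0.80 (SE 0.26), *Pomt1* at -0.90 (SE 0.31) and *Dpm2* at -0.37 (SE 0.21) had the lowest p of these enzymes, with edgeR adjusted p of 0.220, 0.249 and 0.540.

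**Figure D5:**
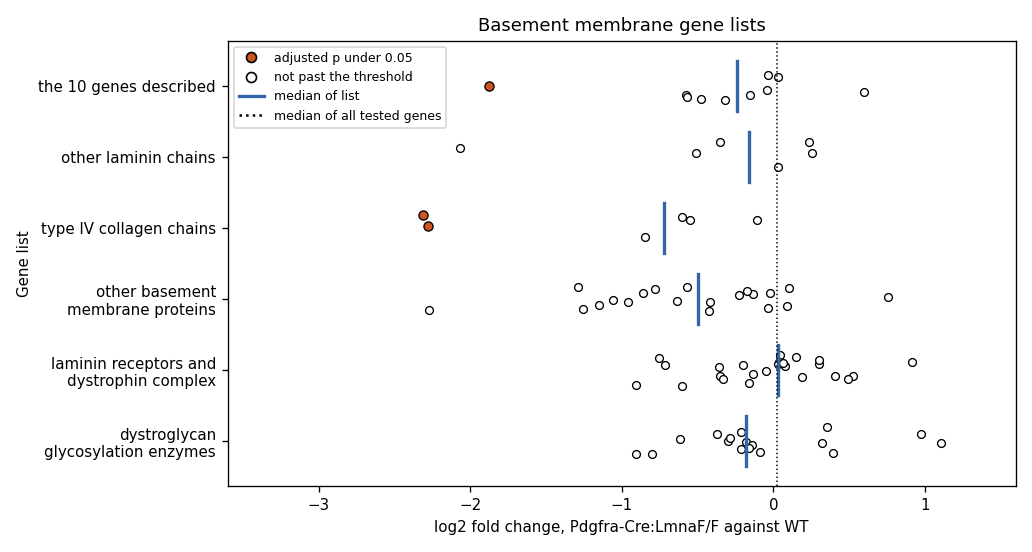
Log2 fold changes in Pdgfra-Cre:LmnaF/F against WT libraries for the 10 genes and the 5 lists, 1 point per tested gene, with the median of each list as a line, the median of all tested genes as a dotted line, and filled points for genes that passed the edgeR test. *Hmcn2*, *Col4a3* and *Col4a4* are the 3 filled points, and the medians lie between -0.72 and 0.03.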

How the data were processed

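RNA of sorted ventricular PDGFRA+ cells of 4 WT and 4 Pdgfra-Cre:LmnaF/F libraries was analysed, grouped by their labels. The authors prepared stranded, ribosome-depleted libraries (150 bp paired-end, RIN above 8), used HISAT2 to align reads to mm10, and obtained gene counts from featureCounts with GENCODE annotation. The versions, the GENCODE release and the strand setting are not given in the sources used here. The deposited values are raw counts for each gene, as the authors made them before the RUV normalization and DESeq2 test they describe. Genes with a total under 4 counts over the 8 libraries are not listed.

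Counts were scaled with TMM factors, filtered with filterByExpr and tested with the quasi-likelihood test of edgeR 4.0.16 (R 4.3.3), fitting genotype alone, and p-values were Benjamini-Hochberg adjusted over 13036 genes, with a threshold of 0.05. Ratios of gene pairs (0.5 counts added to each) were compared by permutation, exact and two-sided. Exon lengths came from GENCODE M21, as the union of exons over the transcripts of a gene, and promoter windows from RefSeq (GRCm38.p6). A count of 3 or fewer was taken as the floor, and depths cover counting error only. The scripts were tested on simulated counts with genes changed by a known fold. There edgeR recovered 8 of 187 genes changed 2-fold and 136 of 191 changed 4-fold, with 0 and 6 false calls. DESeq2 recovered 41 and 153 of them, with 14 and 29 false calls. A gene that was not called is therefore not shown to be unchanged.

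The alternatives were DESeq2 1.42.0, limma-voom 3.58.1 with sample quality weights, upper-quartile or RLE factors, no filter, at least 10 counts in every library, 1 RUVr factor, a replicate block and leaving out each library. Leaving out WT replicates 2 and 3 together was chosen after seeing the data. The 10 genes and the lists were chosen with earlier results of these data known. The named genes were all 10, *Lmna* and *Pdgfra*, the 3 of each list with the lowest p and any called, and the 3 most like the member with the lowest p in each direction. A gene that this rule names is not reported here.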

Additional observations from a re-analysis of the deposited data

Results flagged for a closer look

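In the WT libraries, *Lamb2* was at 821 CPM in replicate 2, and the gap to the next WT library was 0.934 of the range of the group, above the 95% critical value of Dixon's test for 4 samples. WT replicate 2 is the shallowest library, and 1632 counts stood behind this value. In the Pdgfra-Cre:LmnaF/F libraries, *Nid1* was at 4682 CPM in replicate 4, with a gap of 0.849 of the range. The same library had the highest sum of cardiac myocyte markers, 5593 CPM, and its part in the *Nid1* level was not tested. Chance puts about 1 in 20 groups past this value, and 28 groups were examined.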

How the results depend on the processing

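The number of genes called over the whole table depended most on the settings. Against 53 genes, DESeq2 called 303 (168 lower), no filter 274, limma-voom 126, 1 RUVr factor 83 and the replicate block 36, leaving out 1 library gave 13 to 76, and leaving out WT replicates 2 and 3 together gave 18. The number of the 10 genes called was 0 to 1 with 1 library left out, and 0 without WT replicates 2 and 3, when *Hmcn2* had a log2 fold change of -1.59. The number of the 10 genes with all mutant libraries below all WT libraries was 1 to 4 with 1 library left out, against 5.11% to 7.15% of tested genes, and 6 without WT replicates 2 and 3, against 10.4% of tested genes, and in none of these settings did a gene of the 10 have all mutant libraries above all WT libraries. It was 4 without WT replicate 3 (7.15% of tested genes) and 2 without Pdgfra-Cre:LmnaF/F replicate 4 (*Lamb2* and *Hmcn2*, against 6.01%).

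DESeq2 called 1 other laminin chain, 4 other basement membrane proteins and 2 receptor genes (2.58% of all genes with an adjusted p). Without the filter 3 basement membrane proteins and 1 receptor gene were called (1.45% of all listed genes), and with 1 RUVr factor 1 basement membrane protein (0.637% of tested genes). Leaving out 1 library gave 0 to 1 for the basement membrane proteins.

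The sign turned for 3 genes that were not called. *Lama2* was at -0.10 with limma-voom, -0.18 without WT replicate 3, -0.03 without Pdgfra-Cre:LmnaF/F replicate 4 and -0.28 without WT replicates 2 and 3. *Lamb1* was at 0.068 without WT replicate 1 and 0.0015 without WT replicate 4, and *Nid2* at 0.11 without Pdgfra-Cre:LmnaF/F replicate 1. With 1 library left out, *Lama2* ranged from -0.18 to 0.20, *Lamb1* from -0.21 to 0.068 and *Nid2* from -0.20 to 0.11. The ratio of *Hmcn1* to *Hmcn2* differed by 2.14 to 2.85 with 1 library left out, by 1.79 without WT replicates 2 and 3 (exact p = 0.0667), and by 2.52 with pairs of equal replicate number (exact p = 0.125, the smallest that 4 pairs allow). Correlations of same-numbered libraries lay between -0.03 and 0.04, so the numbers were not taken as pairs, and *Hmcn2* had an edgeR adjusted p of 0.0279 with the replicate block. *Lmna*, the 2 type IV collagen calls and the count of 0 glycosylation enzymes kept their side of the threshold under all 17 alternatives. The cause was not tested. The SEs of the 10 log2 fold changes lay between 0.21 and 0.31, which limits the differences that could be called.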
